A study of Mus musculus with 14 samples.

Results

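The 35 genes described here mark macrophages and other myeloid cells, and were followed in samples of lymphatic endothelial cells from mouse lymph nodes. They were chosen by name, with Emr1 (now Adgre1) standing for the macrophage antigen F4/80, and no measured value entered the choice. The arrays carried 33 of them under the listed name, and Spi1 and Pirb as Sfpi1 and Lilrb3, so that 35 of 34741 gene names made up the set. Macrophages are phagocytes that arise from myeloid precursors under the transcription factor PU.1, the product of Spi1. In the lymph node they lie along the sinuses, where they take up particles, microbes and dying cells from the lymph, and those of the subcapsular and medullary sinuses carry different surface receptors.

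The study compared endothelium of the subcapsular sinus, which receives afferent lymph, with that of the medullary sinus on the efferent side, in C57Bl/6 mice. Laser-capture microdissection (LCM) gave 5 subcapsular and 5 medullary samples of 50 cells each, cut as CD31-labelled cells from frozen sections of inguinal, axillary and brachial nodes that were stained for CD31 and F4/80. Fluorescence sorting (FACS) gave 2 subcapsular and 2 medullary samples of 1200 cells each from nodes of many sites, digested and stained for CD73, podoplanin, a lineage cocktail that includes CD11b (the product of Itgam), and a dead-cell dye. The gates are not given in the sources used here, and neither are the animals behind each sample, so p-values measure the spread between these samples only. Each sample was amplified and hybridised to 1 single-colour Agilent array. A level is the log2 signal of a gene's probe relative to the 75th percentile of its array, and all differences are on the log2 scale. A negative sinus difference means a lower level in the medullary samples, and a negative isolation difference a lower level in sorted cells. A gene was called at an adjusted p under 0.05 (limma, Benjamini-Hochberg over all genes tested).

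On subcapsular LCM arrays 50.77% to 69.02% of probes were well above background, and on medullary LCM arrays 67.35% to 75.31%. The FACS arrays had 77.84% and 66.28% in the subcapsular and 78.97% and 69.06% in the medullary pair. The median probe lay at −3.812 to −3.022 on subcapsular and −3.065 to −2.121 on medullary LCM arrays, relative to the 75th percentile. The part of this in the sinus differences was not tested. Of 20 lymphatic endothelial markers on the array, Prox1, Pecam1, Tek and Kdr were above background on all 14 arrays. The number of the 20 above background was 7 to 16 on subcapsular and 15 to 18 on medullary LCM arrays. It was 15 on each subcapsular FACS array, and 13 and 10 on the medullary ones. Pdpn, which encodes the podoplanin stained for sorting, was above background on 1 of 5 subcapsular and 4 of 5 medullary LCM arrays and on 1 of 2 and 2 of 2 FACS arrays, with FACS means of −5.25 and −0.92. Lyve1 was above background on 3 of 5 arrays of each LCM group, 1 of 2 subcapsular FACS arrays and no medullary FACS array, and Pecam1, which encodes CD31, was above background on all 14 with group means of 4.18, 4.82, 4.62 and −3.60 in the order subcapsular LCM, medullary LCM, subcapsular FACS and medullary FACS. The leukocyte gene Ptprc (CD45) was also above background on all 14, with group means of 4.57, 3.43, 3.76 and 0.37 in the same order. In these bulk samples, fewer cells of a type and less RNA per cell cannot be told apart. All 5 subcapsular LCM samples shared slide 1 with medullary replicates 1 to 3, and the other 6 samples were on slide 2.

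The probes decide what some of these values can say, and the sequences that matter are shown here. The array holds several probes for 10 of the 35 genes, and the brightest represented each gene. For Itgam, the integrin chain of CD11b, this was a probe at chr7:135261755-135261814 (mm9), and for Pirb, an inhibitory receptor of myeloid and B cells, a probe at chr7:3663046-3663105. The opening bases of the Itgam probe and a stretch of the Pirb probe are set beside the opening bases of another RefSeq probe of the same gene. Capitals mark a run of CA repeats for Itgam and 24 bases that several probes share for Pirb.
Itgam, brightest probe: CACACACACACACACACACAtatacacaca
Itgam, next RefSeq probe: aagttcacaatcctgtaccactcattgtgg
Pirb, stretch of the brightest probe: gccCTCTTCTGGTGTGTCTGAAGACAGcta
Pirb, RefSeq probe: gaaacgtgactgcactttaagtaacatcag
All 22 probes on the array with a CA run of 20 bases were above background on all 14 arrays, as were the 6 probes with the 24 bases of the Pirb probe, against 32.3% of all probes. The values of Itgam and Pirb from these probes are therefore printed as measured and not read as levels of those genes. Lyz1 and Lyz2, the neighbouring lysozyme genes on chromosome 10, have probes that share no run of more than 6 bases of 60. The probes were compared only with each other. Whether either also binds the transcript of the other gene was not tested.
Lyz1 probe, first 30 bases: ccaataaccacaggagcaaatctaatctca
Lyz2 probe, first 30 bases: aacgttgtgagtttgccagaactctgaaaa

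Most of the set was present on these arrays. Well above background on all 14 arrays were 19 of the 35 genes, and 5 genes (Itgax, Gpnmb, Ms4a7, Trem2 and C5ar1) were above background on 4 or fewer. The median level over the 35 genes ranged from 1.63 to 3.25 in subcapsular LCM and from −0.03 to 1.16 in medullary LCM samples. In FACS it came to −0.62 and 0.73 for the subcapsular pair and −1.03 and −0.78 for the medullary pair. The number of the 35 above background was 23 to 28, 25 to 30, 26 and 31, and 25 and 28 in the same order, so the medians and not the detection counts separated the LCM groups.

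**Figure D1:**
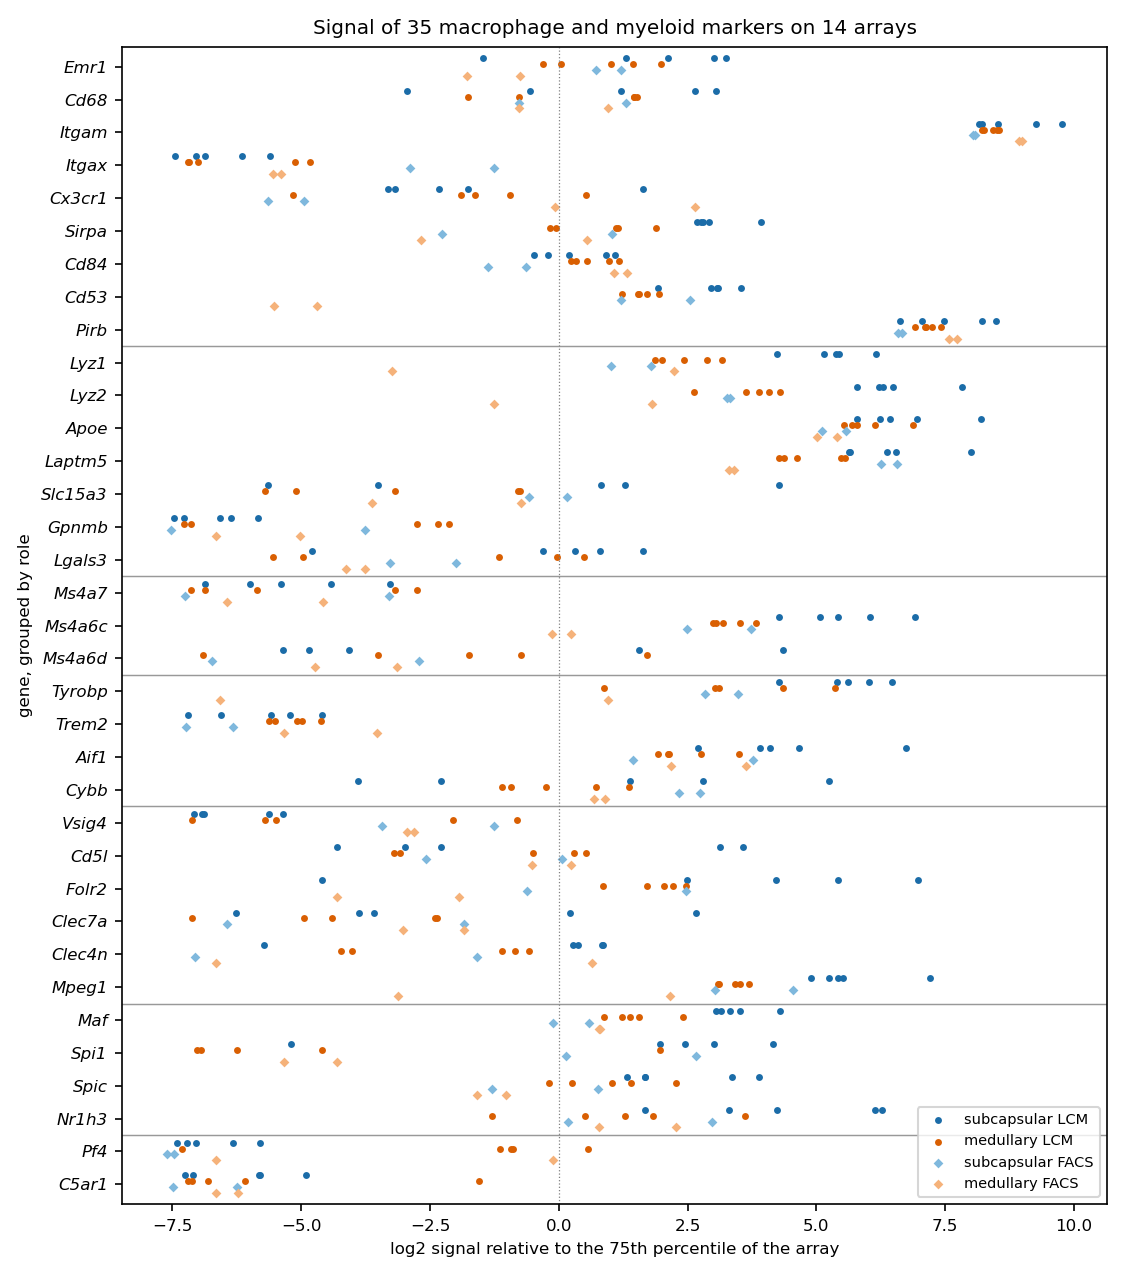
Level of each of the 35 genes (rows, grouped by role) on each of the 14 arrays, as log2 signal relative to the 75th percentile of the array (x axis). Points of Lyz1, Lyz2, Mpeg1, Ms4a6c, Maf, Sirpa and Laptm5 from the 5 subcapsular LCM arrays lie to the right of all 5 medullary LCM points, and the Itgam and Pirb points lie between 6.58 and 9.77 on every array.

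In dissected cells, 27 of 30 macrophage and myeloid genes tested had a lower estimate in the medullary than in the subcapsular sinus, and none was called. Their median difference was −1.45, against 0.08 over all 27353 genes tested, of which 47.4% had an estimate below 0. The count below 0 was 19 of 30 with the percentile taken over probes above background on all arrays, which moved the median of all genes to 0.81, and 24 of 30 with quantile normalization or the deposited values. limma called 48 of these genes in either direction (0.175%), of which 2 were lower (0.00731%). At an unadjusted p under 0.05, 12 of the 30 were lower and 1 was higher, against 4.81% and 6.88% of all genes tested. Of these, Spi1 entered the test only through the subcapsular group and Pf4 only through the medullary group. In 7 of the 30 every subcapsular array exceeded every medullary array, against 2.06% of all genes. This holds for the probe that represented each gene. Second probes of Mpeg1, Maf and Laptm5, which are among the 7, overlapped between the LCM groups, with differences of −2.76, −1.30 and −1.55. Itgax, Ms4a7, Trem2, Vsig4 and C5ar1 did not pass the filter on dim probes and were not tested.

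The lysozymes came first by p. Lyz1 and Lyz2 encode enzymes that cleave bacterial cell walls, and Lyz2 is a standard gene of the macrophage lineage. Lyz1 read 5.15, 6.16, 4.23, 5.43 and 5.38 on the subcapsular LCM arrays and 1.86, 2.43, 2.01, 2.88 and 3.17 on the medullary ones. Lyz2 read 6.29, 7.82, 5.79, 6.49 and 6.22 against 4.07, 3.64, 2.63, 3.89 and 4.29. The groups did not overlap for either gene. The difference was −2.80 ± 0.52 (SE, n = 5 and 5), or 6.97-fold, for Lyz1 (adjusted p = 0.0691) and −2.82 ± 0.55, or 7.06-fold, for Lyz2 (adjusted p = 0.0904). Both passed 0.05 with a stricter filter on dim probes (adjusted p = 0.0342 and 0.0453) and not on slide 1 alone (−3.17 and −3.08, adjusted p = 0.0716 and 0.107). Of the other 5 lysosomal and lipid genes, Laptm5, a lysosomal protein of blood cells, read 5.64, 7.99, 6.54, 6.36 and 5.66 against 5.48, 4.27, 4.62, 5.56 and 4.37. Its groups did not overlap either, with a gap between 5.64 and 5.56, and its difference was −1.58 ± 0.59 (adjusted p = 0.355). By a second Laptm5 probe they did overlap (−1.55). Apoe, the lipid carrier, differed by −0.71 ± 0.57. The peptide transporter Slc15a3 differed by −2.56 ± 1.82 and the galectin Lgals3 by −1.77 ± 1.51, both with spreads that spanned most of the range between arrays. Gpnmb, a glycoprotein of lipid-laden macrophages, was above background on no subcapsular and 3 of 5 medullary arrays, and was higher in the medullary group (adjusted p = 0.447). It entered the LCM test only through that group, so no fold is given.

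Among surface receptors, Sirpa, the receptor for the CD47 signal that restrains phagocytosis, came first. Its subcapsular LCM values were 2.68, 3.92, 2.91, 2.80 and 2.76, and its medullary values 1.88, −0.18, −0.05, 1.11 and 1.14. All 5 subcapsular arrays lay higher, by −2.24 ± 0.55 for the medullary group (adjusted p = 0.187). Emr1, the gene of the stained F4/80 antigen, read 3.25, 3.02, −1.48, 1.30 and 2.11 in the subcapsular and 1.43, 1.02, 0.04, −0.31 and 1.98 in the medullary group by its brightest probe. These groups overlapped, and the difference of −0.81 ± 0.91 did not pass (adjusted p = 0.775). A second Emr1 probe, nearer the transcript's end, read 2.37, 5.31, 0.28, 0.97 and 0.60 against −1.04, −1.88, −1.29, −4.95 and −2.65, without overlap. With each probe as its own feature, where 54 of 41266 probes were called (0.131%), that probe differed by −4.27 ± 1.08 (adjusted p = 0.21), so the sinus difference of Emr1 depended on the probe. The tetraspanin Cd53 differed by −1.32 ± 0.46 (adjusted p = 0.327). Cd68, a lysosomal glycoprotein, differed by −0.30 ± 1.19, the homotypic receptor Cd84 by 0.35 ± 0.50 and the fractalkine receptor Cx3cr1 by −0.03 ± 1.19, all within their spread. The 3 Itgam probes differed by −0.39, −3.19 and 2.45, and the 3 Pirb probes by −0.40, −0.28 and −4.11, so the array gave no single sinus value for either gene.

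**Figure D2:**
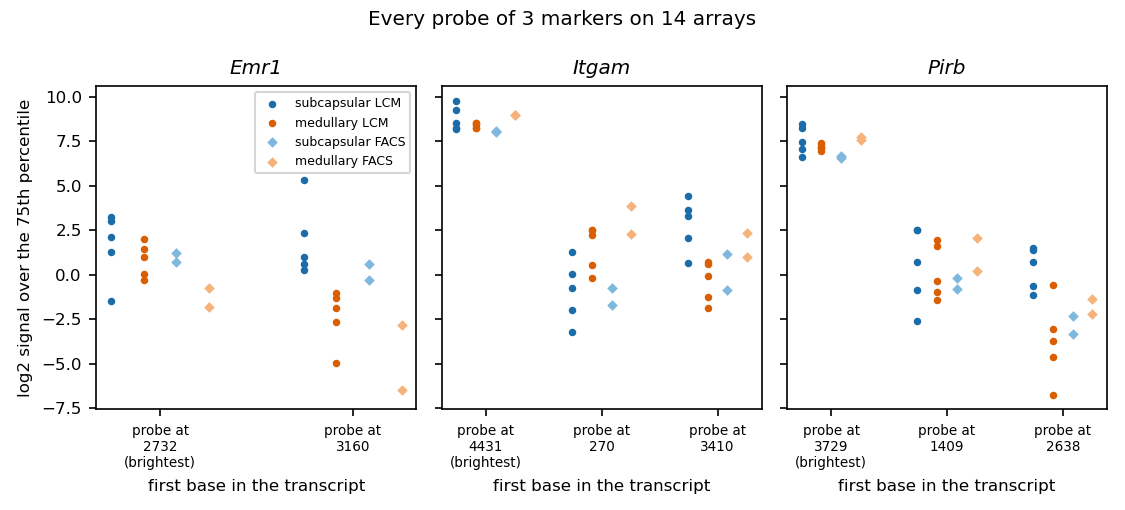
Level of every probe of Emr1, Itgam and Pirb on the 14 arrays (y axis, log2 signal relative to the 75th percentile), with the probe's first base in its transcript on the x axis. The brightest probes of Itgam and Pirb stay between 6.58 and 9.77 while the other probes of both genes range from −6.73 to 4.41, and the Emr1 probe at base 3160 separates the LCM groups where the brightest does not.

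The MS4A genes encode 4-span membrane proteins, and the pair Ms4a6c and Ms4a6d lies on chromosome 19. Ms4a6c read 6.03, 6.92, 5.07, 5.42 and 4.28 in subcapsular and 3.51, 3.18, 2.99, 3.05 and 3.83 in medullary LCM. The groups were apart, with a difference of −2.23 ± 0.56 (adjusted p = 0.195). Ms4a6d ran from −5.35 to 4.35 in the subcapsular and from −6.91 to 1.72 in the medullary group. It was above background on 3 and 4 of 5 arrays, and its difference of −0.57 ± 2.13 (adjusted p = 0.942) was far within the spread. The arrays thus separated the LCM groups by Ms4a6c and not by Ms4a6d, though the difference between the paralogs was not tested.

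Tyrobp, the adaptor DAP12 that carries signals of activating myeloid receptors, read 6.01, 5.39, 5.62, 6.46 and 4.28 against 3.04, 4.36, 3.10, 0.87 and 5.36. Medullary replicates 2 and 5 reached the lowest subcapsular value, and the difference was −2.21 ± 0.82 (adjusted p = 0.356). Aif1, the actin-binding protein also known as IBA1, differed by −1.94 ± 0.73 (adjusted p = 0.361). The NADPH oxidase subunit Cybb differed by −0.68 ± 1.55, with subcapsular values from −3.90 to 5.24. Trem2, a receptor that signals through Tyrobp, was above background on none of the 10 LCM arrays.

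Mpeg1 encodes perforin-2, a pore-forming protein of phagocytes. Its values were 5.25, 7.21, 4.90, 5.41 and 5.51 in subcapsular and 3.42, 3.51, 3.08, 3.10 and 3.70 in medullary LCM. The groups did not overlap, and the difference was −2.30 ± 0.53, or 4.91-fold (adjusted p = 0.16). By a second Mpeg1 probe they did overlap (−2.76). Folr2, a folate receptor of resident macrophages, read −4.59 on subcapsular replicate 4 and 2.48 to 6.98 on the other 4, and differed by −1.05 ± 1.80. The lectins Clec7a and Clec4n and the secreted scavenger protein Cd5l differed by −2.07 ± 1.62, −1.48 ± 1.35 and −0.62 ± 1.62, without separation of the groups. Vsig4, a complement receptor of tissue macrophages, was above background on no subcapsular and 2 of 5 medullary arrays.

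All 4 transcription factors had lower medullary estimates. Maf, a factor of mature macrophages, read 3.52, 4.29, 3.05, 3.15 and 3.32 against 1.56, 1.23, 1.38, 0.87 and 2.41. Its groups were apart by −1.98 ± 0.49 (adjusted p = 0.185). By a second Maf probe they overlapped (−1.30 ± 1.92). Spi1 read 4.15, 3.01, 2.45, −5.20 and 1.97 in subcapsular and −6.94, 1.97, −7.02, −4.60 and −6.24 in medullary LCM. It was thus low on 1 subcapsular and 4 medullary arrays, with above-background calls on 4 and 2 of 5. Spi1 therefore entered the LCM test only through the subcapsular group, and the difference was −5.84 ± 2.08 (adjusted p = 0.334). Nr1h3, the oxysterol receptor LXR-alpha, differed by −3.14 ± 1.10 (adjusted p = 0.325). Spic, a PU.1 relative of iron-recycling macrophages, differed by −1.43 ± 0.70 (adjusted p = 0.465).

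Pf4, a chemokine stored in platelets and also made by some macrophages, ran the other way. It was above background on none of the 5 subcapsular LCM arrays, where it read −5.79 to −7.42, and on 4 of 5 medullary arrays. The medullary values were −0.89, −1.14, 0.56, −7.31 and −0.93, so that replicate 4 stood with the subcapsular arrays. The medullary mean was higher (adjusted p = 0.211), by 1.47 to 6.27 over the main fit and the alternatives. In the fit without medullary replicate 4 Pf4 passed (adjusted p = 0.00962). Since no subcapsular array was above background, it entered the test only through the medullary group. Of the other 10 platelet and megakaryocyte genes looked up, 6 were tested and 2 of them had lower medullary estimates (median 0.37). Ppbp, the other chemokine of platelet granules in that list, was above background on 2 of 5 arrays of each LCM group with means of −4.70 and −4.95, and the part of platelets in the Pf4 signal was not tested. C5ar1, the receptor for complement C5a, was above background on 1 medullary array only.

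**Figure D3:**
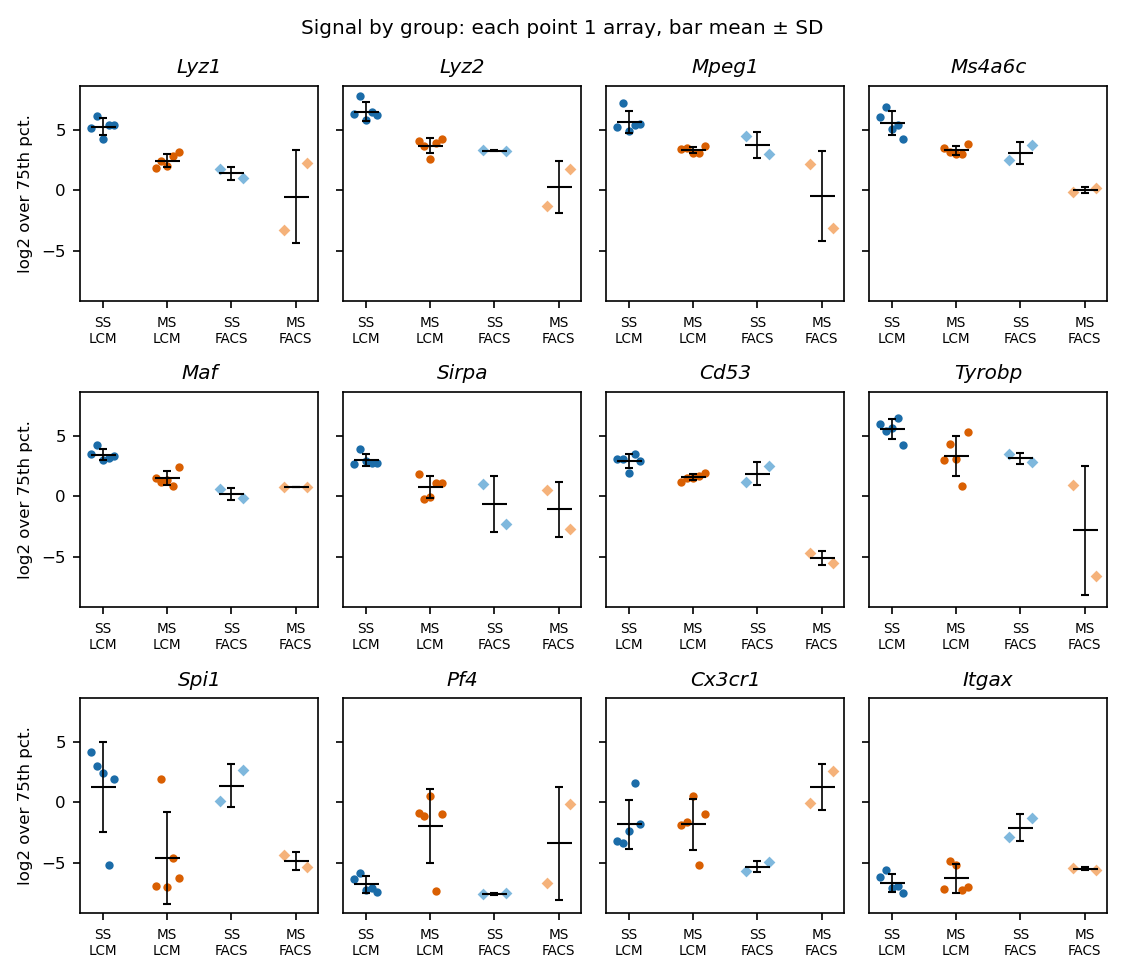
Level of 12 of the genes by group (y axis, log2 signal relative to the 75th percentile; SS, subcapsular; MS, medullary), with each array as a point and bars for the mean ± SD. Lyz1, Lyz2, Mpeg1, Ms4a6c, Maf and Sirpa separate the LCM groups, Cd53 lies at −4.69 and −5.52 on the medullary FACS arrays, and Pf4 is high on 4 medullary LCM arrays.

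In sorted cells, none of 28 genes tested was called, in a fit where no gene of 27634 was (0%). Estimates were below 0 for 20 of the 28, against 40.5% of all genes, and their median was −1.18, against 0.73 over all genes. At an unadjusted limma p under 0.05, 7 were lower and 2 higher, against 13.7% and 18.2% of all genes. Of these, Cd53, Itgax and Spi1 entered the test only through the subcapsular group and Cx3cr1 only through the medullary group. In 13 both subcapsular arrays exceeded both medullary arrays and in 5 the reverse held, against 26.7% and 43% of all genes. With 2 arrays a group, separation of this kind is common and says little about a gene. Pf4, Gpnmb, Clec4n, Ms4a6d, Ms4a7, Trem2 and C5ar1 did not pass the filter.

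Among these genes Cd53 had the lowest p in FACS. It read 1.20 and 2.55 in the subcapsular and −4.69 and −5.52 in the medullary samples, where neither array was above background (adjusted p = 0.0647). It entered the FACS test only through the subcapsular group, so no fold is given. Its difference ranged from −7.98 to −3.95 over the main fit and the alternatives. Cx3cr1 went the other way, with −5.64 and −4.95 in the subcapsular samples, both not well above background, and −0.07 and 2.64 in the medullary ones. It was higher in medullary FACS (adjusted p = 0.0821), by 2.65 to 7.93 over the main fit and the alternatives. It entered the FACS test only through the medullary group, so no fold is given. A second Cx3cr1 probe was above background on 1 subcapsular and no medullary FACS array. Spi1 read 0.13 and 2.67 against −4.31 and −5.33, a difference of −6.22 ± 1.12 (adjusted p = 0.0861). Both its subcapsular values and 1 medullary value were above background, so Spi1 also entered the FACS test only through the subcapsular group. Laptm5 read 6.26 and 6.56 against 3.39 and 3.30, a difference of −3.06 ± 0.56 (adjusted p = 0.0868), and its second probe gave −3.29. Itgax, the integrin chain of CD11c, was above background only on the 2 subcapsular FACS arrays, at −2.88 and −1.26, and was lower in medullary FACS (adjusted p = 0.106). It too entered the FACS test only through the group where it was high. Its difference ranged from −4.21 to −0.64 over the main fit and the alternatives.

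Other genes repeated the LCM direction or reversed it. Ms4a6c read 2.48 and 3.72 against −0.14 and 0.24 (−3.04 ± 0.72, adjusted p = 0.107), and Emr1 0.73 and 1.21 against −0.76 and −1.79 (−2.25 ± 0.68, adjusted p = 0.135). Lyz2 read 3.32 and 3.27 against −1.26 and 1.81 (−3.02 ± 1.22, adjusted p = 0.178). For Lyz1, Mpeg1 and Tyrobp the medullary FACS replicates lay far apart. Lyz1 was −3.24 on medullary replicate 6 and 2.23 on replicate 7, against 1.79 and 1.02, and without replicate 6 its difference turned to 0.82. Mpeg1 read 4.54 and 3.03 against 2.16 and −3.12, and Tyrobp 3.47 and 2.84 against 0.96 and −6.58, each with its low value on replicate 7. Cd84 was higher in medullary FACS by its brightest probe (−0.64 and −1.38 against 1.33 and 1.07, 2.21 ± 0.62, adjusted p = 0.125), and its other probe gave −2.83. The brightest Cd68 probe differed by −0.18 and the other by −5.30. Maf read 0.58 and −0.12 against 0.79 and 0.78, so its LCM separation did not appear, and Sirpa read 1.03 and −2.26 against 0.54 and −2.67.

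**Figure D4:**
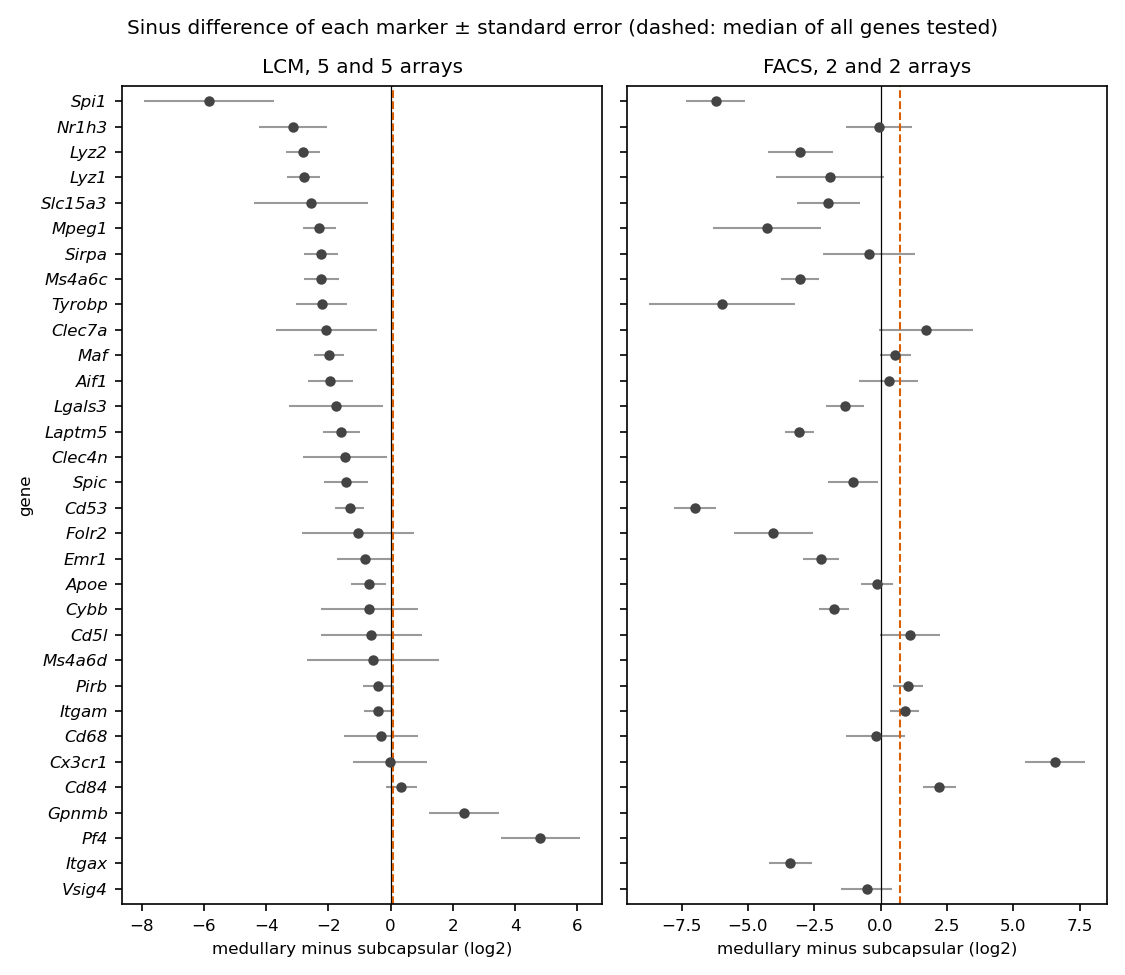
Medullary minus subcapsular difference (x axis, log2) of each gene tested in LCM (left) or FACS (right), with its standard error as the bar and the median of all genes tested as the dashed line (0.08 and 0.73). In LCM 27 of 30 points lie below 0; in FACS 20 of 28 do, with the fitted values of Cd53 (−6.98) and Cx3cr1 (6.58), each with a group not above background, at the ends.

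Of 26 genes tested in both isolations, 18 had estimates below 0 in both, 7 were below 0 in LCM and above 0 in FACS, and Cd84 was above 0 in both. The sinus difference itself was compared between the isolations in 1 fit over 14 arrays, with 32 genes tested. Cd53 was the 1 called, against 1.29% of all genes tested in either direction and 0.739% lower, with a FACS difference that was lower than the LCM difference by −5.66 ± 0.80 (adjusted p = 0.00768). This call rests on the 2 medullary FACS values not above background. It was lost without subcapsular FACS replicate 7 (−4.99, adjusted p = 0.0851), with slide as a block (−5.51, adjusted p = 0.054) and when the replicate number entered as a block (adjusted p = 0.098). Next by p were Cx3cr1 (adjusted p = 0.0926), Itgax (adjusted p = 0.0933), Maf (2.53 ± 0.75, adjusted p = 0.101) and Cd84 (1.86 ± 0.77, adjusted p = 0.197). At an unadjusted p under 0.05, 2 were lower and 3 higher, against 8.71% and 12.6% of all genes. Estimates below 0 came to 14 of 32, against 42.3%, with a median of 0.42 against 0.52. The set's median was −0.45 with quantile normalization and −0.37 with the deposited values, against 0.40 over all genes in both, and −0.21 against −0.10 with the percentile of always-detected probes.

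Averaged over the sinuses, 7 of 32 genes differed between FACS and LCM, against 3.86% of all genes tested; 6 were lower in FACS (2.04% of all genes) and 1 was higher (1.82%). Cd53 (−3.87 ± 0.40, adjusted p = 9.8e-05), Ms4a6c (−2.85 ± 0.45, adjusted p = 0.00319), Lyz2 (−3.33 ± 0.57, adjusted p = 0.00514), Maf (−1.97 ± 0.38, adjusted p = 0.0105), Lyz1 (−3.42 ± 0.80, adjusted p = 0.0314) and Spic (−2.46 ± 0.59, adjusted p = 0.034) were the lower ones. Itgax was higher (adjusted p = 0.0134). It was above background on the 2 subcapsular FACS arrays and on none of the other 12, so it entered the test only through the group where it was high, and no size is given for its difference. Estimates were below 0 for 27 of the 32, with a median of −1.10, against 42.7% and 0.17 over all genes, and 11 were lower and 2 higher at an unadjusted p under 0.05, against 6.61% and 9.45%. Within the sinuses the sizes were unequal. Cd53 was −6.70 in medullary samples, where neither FACS array was above background, and −1.04 in subcapsular samples. Maf was −0.70 and −3.24, while Lyz2 was −3.43 and −3.23 and Ms4a6c −3.26 and −2.45. Maf was the 1 gene whose 4 FACS values all lay under its 10 LCM values, which held for 0.556% of all genes. Spic read 3.89, 3.36, 1.68, 1.32 and 1.68 in subcapsular LCM, 1.41, 0.26, −0.20, 1.04 and 2.28 in medullary LCM, 0.76 and −1.29 in subcapsular FACS and −1.03 and −1.59 in medullary FACS. Its FACS values overlapped the medullary LCM values in 1 sample.

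Isolation and slide were largely confounded, since all subcapsular LCM arrays were on slide 1 and all FACS arrays on slide 2. With slide as a block, Cd53 alone stayed called (−4.18 ± 0.72, adjusted p = 0.0218), and on the 4 medullary arrays of slide 2 none was, with 18 of the 32 below 0 in place of 27. Lyz1, Lyz2, Ms4a6c and Spic gave −3.53, −3.82, −3.39 and −2.97 there, and Maf gave −0.86. Without subcapsular FACS replicate 7 the calls of Lyz1 (−3.23, adjusted p = 0.122), Maf (−1.80, adjusted p = 0.0775), Spic (−1.95, adjusted p = 0.208) and Itgax (adjusted p = 0.101) were lost. Lyz1 also lost its call without subcapsular FACS replicate 6, subcapsular LCM replicates 4 or 5, or medullary LCM replicates 2, 4 or 5, with adjusted p from 0.0502 to 0.0845. Spic did so without subcapsular LCM replicate 2, medullary LCM replicates 1, 4 or 5, or medullary FACS replicate 7, with adjusted p from 0.0534 to 0.0762. Cell number, slide, node sites and isolation changed together between the subcapsular groups and cannot be told apart there.

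A second list of 35 further macrophage genes was set beside the first. In LCM 27 of 31 tested had lower medullary estimates (median −1.57), against 47.4% of all genes, and none was called. At an unadjusted limma p under 0.05, 13 were lower and 0 higher, against 4.81% and 6.88% of all genes. The lowest p values were those of Timd4, a receptor for dying cells (−3.12 ± 0.56, adjusted p = 0.0622), Siglec1, the sialoadhesin CD169 (−4.54 ± 0.87, adjusted p = 0.0843), the scavenger receptor Msr1 (−4.57 ± 1.10, adjusted p = 0.175) and the inhibitory receptor Lilrb4 (−2.11 ± 0.52, adjusted p = 0.184). In FACS 21 of 32 were below 0 (median −2.09), against 40.5% of all genes, and none was called. There 12 were lower and 2 higher at an unadjusted limma p under 0.05, against 13.7% and 18.2% of all genes. The lowest p values were those of Clec4a1 (higher in medullary samples), Adam8, Axl (−5.18 ± 0.79) and Fcgr2b (−3.18 ± 0.63). Clec4a1 was above background on no subcapsular and Adam8 on no medullary FACS array, so no size is given for either. Between the isolations 6 of 35 tested were lower in FACS (Timd4, Hmox1, Lilrb4, Ctss, Msr1 and C1qa, by −2.46 to −5.27), against 2.04% of all genes. Adam8 was the 1 called higher (adjusted p = 0.00399), against 1.82% of all genes. In the interaction Adam8 was called (adjusted p = 0.0452), 1 of 35 tested, against 1.29% of all genes. Like Itgax, it was above background only on the 2 subcapsular FACS arrays and entered both tests through that group.

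Genes of other cells moved with the set in part. In LCM the medians were −0.86 for 15 pan-leukocyte genes (11 below 0), −1.04 for 13 B cell genes (11 below 0), −0.92 for 7 monocyte genes (5 below 0) and −0.70 for 14 dendritic cell genes (8 below 0). They were 0.85 for 13 T cell genes (4 below 0) and 1.39 for 12 neutrophil genes (3 below 0). Housekeeping genes had a median of −0.82 with 14 of 17 below 0, and 18 lymphatic endothelial genes a median of 0.59 with 8 below 0. In FACS the pan-leukocyte list had a median of −2.01 with 15 of 15 below 0, the B cell list −1.84 with 12 of 13 and the T cell list −1.57 with 10 of 13. There the housekeeping list lay at −1.37 with 15 of 17 below 0 and the lymphatic endothelial list at −0.81 with 9 of 15. The median level of the B cell list was 3.50 to 5.01 on subcapsular LCM, 2.46 to 3.59 on medullary LCM, 3.21 and 4.06 on subcapsular FACS, and 1.21 and 1.29 on medullary FACS arrays. Between FACS and LCM, 15 of 19 lymphatic endothelial genes (median −0.87), 11 of 15 pan-leukocyte genes (−0.87) and 11 of 13 B cell genes (−0.56) were below 0. The counts were 3 of 8 for monocyte (1.47), 2 of 7 for platelet and megakaryocyte (0.64) and 8 of 17 for housekeeping genes (0.16). They were 5 of 13 for T cell (0.15), 6 of 12 for neutrophil (0.07) and 8 of 14 for dendritic cell genes (−0.06). Pecam1 (−3.99 ± 0.71), Cdh5, Ptprc (−1.94 ± 0.43), Fcer2a (−2.77 ± 0.46), Ccr2 (−3.36 ± 0.57) and Psmb2 (−2.66 ± 0.56) were called lower. Pecam1 was lower in medullary FACS (−3.6, against 4.82 in LCM) and not in subcapsular FACS (4.62, against 4.18). Its interaction was also called (−8.86 ± 1.41, adjusted p = 0.0122), the 1 call among 19 lymphatic endothelial genes, against 1.29% of all genes. Cdh5 was above background on neither medullary FACS array. Ccl22 (4.57 ± 0.98), Ccr7 (2.82 ± 0.70) and Gp1bb (2.00 ± 0.48) were called higher. The part of other cells, or of what moved the housekeeping genes, in the differences of the macrophage genes was not tested.

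**Figure D5:**
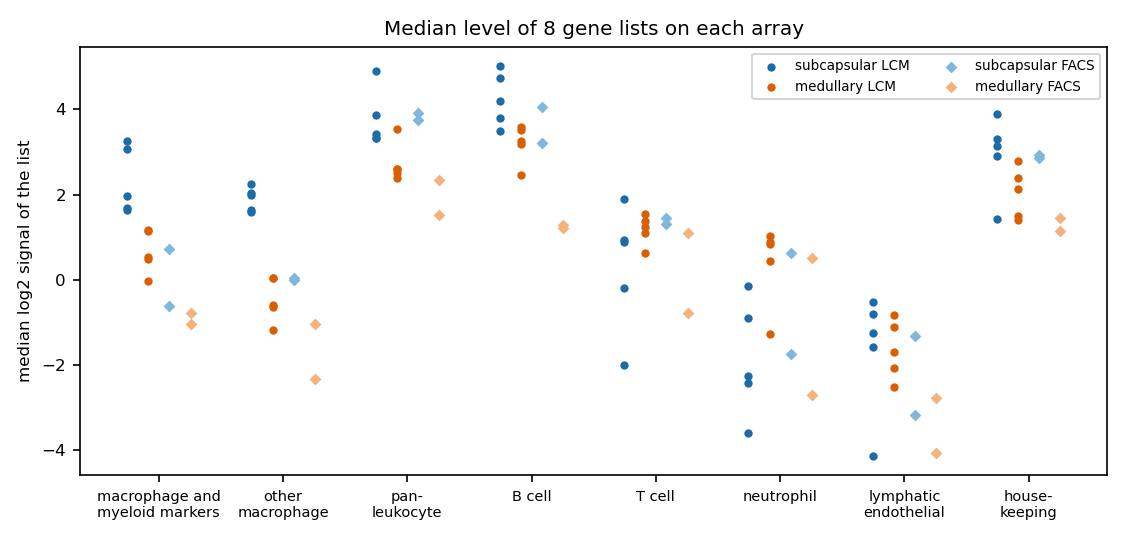
Median level of the 35 genes and of 7 further gene lists on each array (y axis, log2 signal relative to the 75th percentile; x axis, list). The 5 subcapsular LCM points of the 35 genes (1.63 to 3.25) and of the other macrophage genes (1.60 to 2.25) lie above all other arrays, and the 2 medullary FACS points of the B cell list (1.21 and 1.29) lie below all others.

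Since Spi1 and several genes it is known to drive are in the set, promoter sequences were searched for the PU.1 core GAGGAAG on both strands, over 250 bases before to 50 bases after each start site (RefSeq, GRCm38.p6). Promoters were found for 27 of the 35 genes, and 8 of the 27 (29.6%) held the core, against 15.4% of 27025 genes. The 3 windows below belong to Cd53, Laptm5 and Pf4, which are described above. The core is in capitals, as it reads on the gene's strand.
Cd53, chr3:106790125-106790154, minus strand: cactcagtctcaCTTCCTCactcttctcgc
Laptm5, chr4:130913265-130913294, plus strand: ggcagcctgtggCTTCCTCttttttgttct
Pf4, chr5:90772414-90772443, plus strand: ttctgcagagcaCTTCCTCatcctgtatcc
All 3 carry the core on the opposite strand, starting at 8, −39 and −9 bases relative to the start site. Of the 8 genes with the core, Nr1h3, Cd5l, Cd53 and Laptm5 had lower medullary estimates in LCM and Pf4 a higher one, none of them called, and Trem2 was not tested. Pirb and Itgam are not counted, since their probes gave no single sinus value. Lower medullary estimates held for 27 of the 30 genes of the set tested in LCM. A match is a description of sequence and shows no binding.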

How the data were processed

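The 14 scanner files hold intensities that were background-subtracted and spatially detrended by Agilent Feature Extraction 10.7.3.1, per the file headers, without scaling between arrays, and probe positions on mm9. A table of log2 values, deposited by the authors and made by a method not given in the sources used here, served as an alternative. Here log2 intensity minus the 75th percentile over non-control probes was used, outlier spots were dropped, repeated spots averaged and genes named through RefSeq (27235 of 55681 probes), symbols or the file's name. A gene was tested when its probe was well above background on at least 3 of 5 arrays of an LCM group or both arrays of a FACS group. limma 3.58.1 in R 4.3.3 (lmFit, eBayes) fitted the 10 LCM arrays, the 4 FACS arrays, or all 14 with array weights by isolation for the interaction and FACS minus LCM. The fits were tested on simulated data. If a gene was above background on none of a group's arrays, no fold is given. Per-array values or their range, in at least 1 isolation, are given for Emr1, the gene with the lowest LCM p in each role, the 5 lowest p of each comparison, every called gene and the paralog pairs. The second Emr1 probe was added after its values were seen. The genes, lists and rules were chosen with earlier results of these data known. The main fits did not pair samples by replicate number. Deviations of samples with the same number correlated at −0.02 to 0.005, which cannot show whether such samples shared animals. No 2 arrays correlated above 0.85. The number of arrays limits the precision.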

Additional observations from a re-analysis of the deposited data

Results flagged for a closer look

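Among 70 groups of 5 LCM values, 7 held a sample that stood apart from the other 4 by Dixon's criterion, which chance meets in about 1 in 20 groups. Subcapsular replicate 2 was the highest for Sirpa (3.92, next 2.91) and Mpeg1 (7.21, next 5.51) and the lowest for Clec4n (−5.72, next 0.28). Subcapsular replicate 4 was the lowest for Spi1 (−5.20, next 1.97), and medullary replicate 2 the highest for Spi1 (1.97, next −4.60). Medullary replicate 4 was the lowest for Pf4 (−7.31, next −1.14) and the highest for C5ar1 (−1.55, next −6.09). The sinus difference of Cd53 differed between FACS and LCM by −5.66 in the test of the interaction. The cause of each was not tested.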

How the results depend on the processing

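No result changed its called direction under the alternatives run. In LCM, 2 genes (Lyz1 and Lyz2) were called with the percentile taken over probes above background on all arrays (0.837% of all genes), where the median was −0.72 and that of all genes 0.81. The same 2 were called with the stricter filter (0.508% of all genes) and with trend and robust eBayes (0.143%), and 1 (Pf4) on slide 1 alone (0.775%). Leaving out 1 array gave 0 to 1 (Pf4, without medullary replicate 4, 0.351% of all genes). In FACS, the median was −0.46 with normexp and −0.23 without a filter. There 4 genes were called with trend and robust eBayes, against 6.51% of all genes, and 9 with the spread of all 14 arrays, against 16.2%. In the interaction, 2 were called with normexp, with quantile normalization and with the deposited log2 values, and 0 with slide as a block; leaving out 1 array gave 0 (subcapsular FACS replicate 7) to 5 (medullary FACS replicate 6). Of all genes, the interaction called 2.3% with normexp, 3.88% with quantile normalization, 3.83% with the deposited values and 0.155% with slide as a block. Both ends of the range from leaving out 1 array come from fits with 1 array in a FACS group, so they say little. The median of the set in the interaction was −0.45 with quantile normalization, −0.37 with the deposited values and −0.21 with that percentile. For FACS minus LCM, 1 was called with slide as a block and 0 on the medullary arrays of slide 2, and single calls were lost for Itgax with normexp (adjusted p = 0.359), Maf with the mean of its probes (0.421), Lyz1 with quantile normalization (0.0538) and Spic without array weights (0.0727); leaving out 1 array gave 3 (subcapsular FACS replicate 7) to 10 (medullary FACS replicate 6). Both ends of this last range also come from fits with 1 array in a FACS group. With slide as a block, 0.627% of all genes were called for FACS minus LCM. The replicate block left 0 called in LCM, FACS and the interaction. That block could not be fitted for FACS minus LCM, where no number is shared between isolations. Over all genes, calls ranged from 0 (replicate block) to 229 (that percentile) in LCM against 48 reported, from 0 to 4483 (spread of all 14 arrays) in FACS against 0, from 0 (replicate block) to 1151 (quantile) in the interaction against 383, and from 0 (medullary slide 2) to 1564 (leaving out 1 array) in FACS minus LCM against 1145. With Itgam and Pirb by their next RefSeq probes, a choice made after seeing the data, the LCM median was −1.67. Signal near background limits Itgax, Gpnmb, Ms4a7, Trem2 and C5ar1. The causes were not tested.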
